A study of Homo sapiens with 24 samples.

Results

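The measurement described here is the difference between 2 cell lines in their early response to ionising radiation: the change after 2 Gy in SLFN11 knockout cells minus the change after 2 Gy in parental cells, both at 4 h. It was read for 17687 genes, each with 1 symbol in the array annotation, on the 12 of 24 arrays whose titles give 4 h as the harvest time. The 4 groups were ES8-KO 2 Gy 4 h, ES8-KO 0 Gy 4 h, ES8 2 Gy 4 h and ES8 0 Gy 4 h, with 3 arrays each. ES8 is a human Ewing sarcoma line, and ES8-KO is 1 line derived from it by CRISPR/Cas9 knockout of SLFN11. Both lines were grown in the same serum-containing medium and received gamma radiation or none. The knockout is a single derivative line, so SLFN11 loss and the derivation of the line cannot be told apart, and the labels do not say whether replicates were grown separately. The p-values then measure only the spread between these arrays, which may be technical.

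SLFN11 is a Schlafen family protein that binds stressed replication forks and blocks their progress, and cells that make it are often sensitive to drugs that damage replicating DNA. Ionising radiation breaks both DNA strands, and the checkpoint kinases ATM and ATR then hold cells in G2, before mitosis. Transcripts of the mitotic machinery peak in G2 and mitosis and are driven by the MuvB, B-MYB and FOXM1 complexes. Where p53 is functional, its target CDKN1A, a cyclin-dependent kinase inhibitor, shifts MuvB to the repressive DREAM complex.

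Values are log2 signals, so a difference of 1 unit is a 2-fold change. A gene counts as called where limma gave it an adjusted p (Benjamini-Hochberg, all 17687 genes) below 0.05. A gene was taken as above background on an array where its signal passed the 95th percentile of 612 negative control probe sets (3.46 to 3.81 on these arrays). Across genes, arrays within a group had correlations of 0.985 to 0.993. Parental 2 Gy replicate 2 had the narrowest spread of signals, with an interquartile range of 3.28 against 3.42 to 3.62 on the other 11 arrays, and the lowest array weight (0.428). SLFN11 had signals of 6.33, 6.72 and 6.68 in knockout cells after 2 Gy, 6.40, 7.0 and 6.96 in knockout cells at 0 Gy, 8.05, 8.03 and 8.23 in parental cells after 2 Gy, and 8.19, 8.18 and 8.38 in parental cells at 0 Gy. It was lower on every knockout array than on any parental array and above background on all 12, and the place of its probes relative to the edit is not known here. Its difference of the responses was -0.06 (95% interval -0.48 to 0.35). All 9 measured markers of Ewing sarcoma were above background. CDH1, PTPRC and KDR, defining markers of epithelial, blood and endothelial cells, were above background on none of the 12 arrays. Of the marker lists, 10 of 15 epithelial, 6 of 16 blood and 9 of 15 endothelial genes were above it in at least 1 group.

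No gene passed the test for the difference of the responses. Of 17687 genes, 0 were called higher and 0 lower (0% each), and the lowest adjusted p was 1.00 with limma. The unadjusted p was below 0.05 for 220 genes with a positive difference (1.24%) and 215 with a negative one (1.22%). Together they are 2.46% of genes, fewer than the share of 0.05 that the test would pass if no gene differed. This shortfall does not show that the lines respond alike, and its cause was not tested. Both counts were higher with replicate number fitted as a block, as given in the last section. The median gene had a 95% interval reaching 0.455 log2 units to either side of its difference. For 16909 genes (95.6%) the whole interval lay within 1 log2 unit of 0, and for 5675 genes (32.1%) within 0.5. These counts include genes near background. Among the 13026 genes above background on all arrays of at least 1 group, the shares were 95.2% and 36.0%. Without parental 2 Gy replicate 3 the counts at an unadjusted p below 0.05 were 386 positive and 393 negative, and still 0 genes were called.

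The response of parental cells was led by mitosis genes with lower signals after irradiation. In parental cells 33 genes fell and 0 rose (0.187% and 0% of all genes), and 27 of the 33 belong to the 100 measured genes of mitosis described here. The count of 33 was 14 without parental 2 Gy replicate 2, 6, 18 and 16 without parental 0 Gy replicates 1, 2 and 3, and 0 without the intensity trend in limma's prior variance. In knockout cells 0 genes were called in either direction (0% each), with a lowest adjusted p of 0.195 with limma, 292 genes higher and 252 lower at an unadjusted p below 0.05 (1.65% and 1.42%, 3.08% together), against 470 and 614 in parental cells (2.66% and 3.47%, 6.13% together). Replicates of the same number deviated together in the 2 knockout groups, with correlations of 0.27, 0.15 and 0.24 for numbers 1, 2 and 3, and in the 2 parental groups they were 0.09, 0.21 and 0.41. With replicate number fitted as a block, 16 genes fell in knockout cells and 2 rose (0.0905% and 0.0113%). The 16 were AURKA, KIF23, PRC1, KIF14, CENPE, TRIM59, PSRC1, CCNB1, GAS2L3, DEPDC1, KIF18A, CKS2, the histone gene H2BC14 and the near-identical FAM72A, FAM72B and FAM72D, which the probe sets may not separate. Of the 18 genes, 11 are mitosis genes. With the same block, 86 genes fell in parental cells and 7 rose (0.486% and 0.0396%), and 16 of the 18 were among them in the same direction. The 2 that rose were KLK6, a secreted serine protease, and MYO7A, an unconventional myosin of the inner ear.

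Over the 100 mitosis genes the median response was -0.21 in knockout cells and -0.31 in parental cells. Both responses were below 0 for 87 of them. The median signal of the list was 7.64, 7.62 and 7.67 on the 3 knockout arrays after 2 Gy and 8.02, 7.84 and 7.80 at 0 Gy, and 7.44, 7.19 and 7.42 on the 3 parental arrays after 2 Gy and 7.81, 7.70 and 7.76 at 0 Gy. In each line all irradiated arrays lay below all unirradiated ones. Parental 2 Gy replicate 2, the array of narrow range, was lowest of all, and knockout 0 Gy replicate 1 was highest. In a bulk sample, fewer cells in G2 and mitosis and less of these transcripts per cell cannot be told apart.

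**Figure D1:**
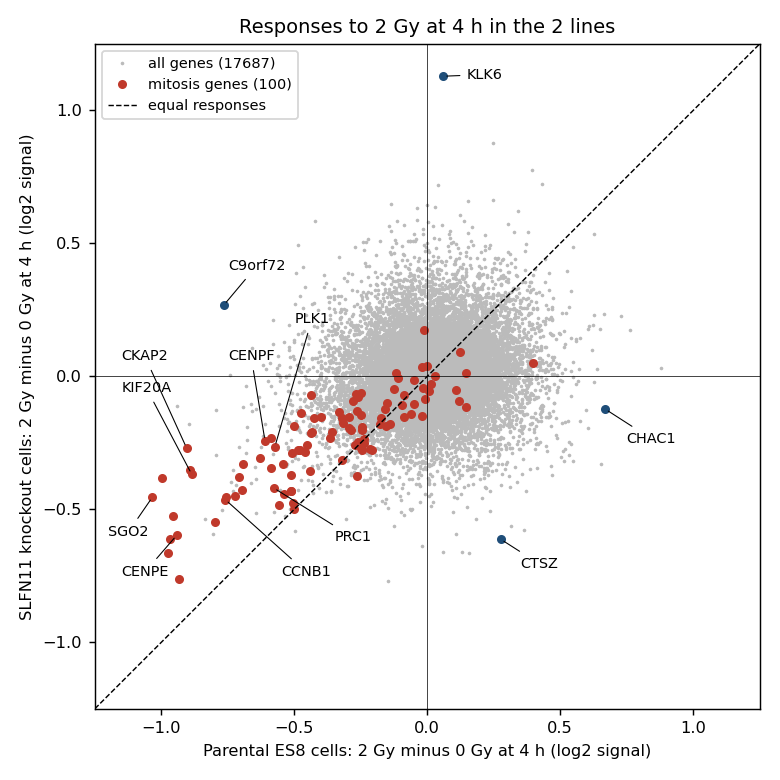
Response to 2 Gy at 4 h in knockout cells (vertical axis) against that in parental cells (horizontal axis), each in log2 units, for 17687 genes in grey and 100 mitosis genes in red, with the dashed line marking equal responses and 4 other genes in blue. Most mitosis genes (87) lie in the lower left quadrant, and 75 lie above the line.

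The difference of the responses was positive for 75 of the 100 mitosis genes, against 49.8% of all genes, with a median of 0.12 against -0.0007 over all genes. A positive difference here means a smaller fall of signal in the knockout line. The list of 100 was joined from the separate mitosis lists after their medians had been seen. It also holds 27 of the 33 genes called for their fall in parental cells, and all 33 had a positive difference. The count of 75 against 49.8% is therefore a description and not a test of mitosis genes. Of the 100 genes, 0 were called, 9 had a positive difference at an unadjusted p below 0.05, and 0 a negative one. Over all genes the shares at that p were 1.24% and 1.22%. The counts of 9 and 0 come from the same list and are likewise a description. Across these 100 genes the 2 responses correlated at 0.84 (Pearson), and across all 17687 genes at 0.19. Both figures are descriptions over genes that share the same 12 arrays. The lines also differed in level: mitosis genes had a median line difference (knockout minus parental) of 0.24 after 2 Gy and 0.13 at 0 Gy, against -0.02 over all genes at either dose.

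**Figure D2:**
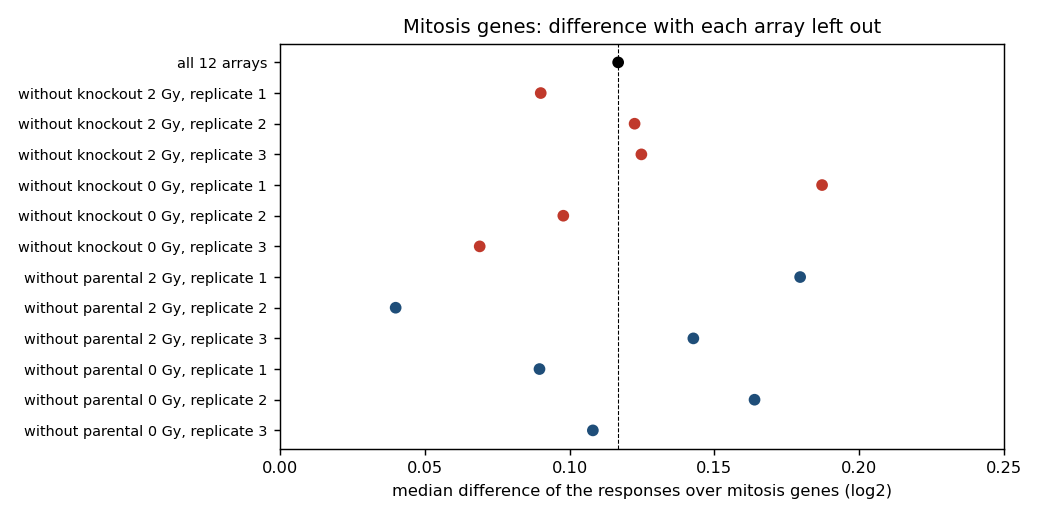
Median difference of the responses over the 100 mitosis genes (horizontal axis, log2 units) with all 12 arrays (black) and with each knockout (red) or parental (blue) array left out. The median lay between 0.04 and 0.19, and was lowest without parental 2 Gy replicate 2.

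Single arrays moved this median. It was 0.04 without parental 2 Gy replicate 2, with 59 positive members, and 0.19 without knockout 0 Gy replicate 1. With array weights, which gave that parental array the least weight, it was 0.06. It stayed at 0.12 with quantile normalization and with equal median and interquartile range. The count of 9 genes was 4 without parental 2 Gy replicate 2 or knockout 0 Gy replicate 3, 5 without knockout 2 Gy replicate 1 or parental 0 Gy replicate 1, 15 without parental 2 Gy replicate 1, and 25 without knockout 0 Gy replicate 1.

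Among cyclins and kinases, PLK1 and CCNB1 are given array by array. Both were called for their fall in parental cells, and their differences lay above the 75th percentile of the list, 0.19. PLK1, polo-like kinase 1, which drives mitotic entry and spindle assembly, had signals of 10.25, 10.45 and 10.54 in knockout cells after 2 Gy, 10.74, 10.68 and 10.60 in knockout cells at 0 Gy, 10.10, 10.09 and 10.01 in parental cells after 2 Gy, and 10.79, 10.61 and 10.50 in parental cells at 0 Gy. Irradiated and unirradiated arrays did not overlap in either line, and the irradiated parental arrays were the lowest of the 12. PLK1 fell by 0.57 in parental cells (SE 0.08, limma adjusted p = 0.0021) and its response in knockout cells was -0.26 (SE 0.08, not called). The difference was 0.31 (95% interval 0.08 to 0.54, limma adjusted p = 1.00).

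CCNB1, cyclin B1, the partner of CDK1 at mitotic entry, had signals of 8.67, 8.69 and 8.87 in knockout cells after 2 Gy, 9.31, 9.10 and 9.20 in knockout cells at 0 Gy, 8.37, 7.91 and 8.31 in parental cells after 2 Gy, and 9.11, 8.96 and 8.80 in parental cells at 0 Gy. It fell in both lines, by 0.76 in parental cells (SE 0.11, limma adjusted p = 0.0024) and by 0.46 in knockout cells (SE 0.11, limma adjusted p = 0.0158 with the replicate block, not called without it). The interval of its difference, -0.03 to 0.62, includes 0. Of the 21 cyclins and kinases, 15 had a positive difference and the median was 0.08, with a range of 0.0065 to 0.17 as each array was left out. BUB1, a spindle checkpoint kinase, had a difference of 0.36 (0.01 to 0.71), and AURKA, Aurora A, which matures centrosomes, of 0.28 (-0.02 to 0.57). PKMYT1, which inhibits CDK1, lay at the other end with -0.35, a response of 0.05 in knockout cells and 0.40 in parental cells.

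The mitotic kinesins, motors that build and move the spindle, had the most positive median of the lists, 0.22 over 13 genes, and all 13 were positive. That median ran from 0.10 to 0.34 as each array was left out. Their median response was -0.23 in knockout cells and -0.50 in parental cells. KIF20A, which works at the central spindle in cytokinesis, had signals of 7.92, 7.84 and 7.88 in knockout cells after 2 Gy, 8.44, 8.27 and 8.04 in knockout cells at 0 Gy, 7.46, 6.93 and 7.31 in parental cells after 2 Gy, and 8.26, 8.01 and 8.09 in parental cells at 0 Gy. The unirradiated lines overlapped, and after 2 Gy each parental array was below each knockout array. KIF20A fell by 0.89 in parental cells (SE 0.12, limma adjusted p = 0.0021), its response in knockout cells was -0.37 (SE 0.12, not called), and the difference was 0.52 (0.15 to 0.88, limma adjusted p = 1.00).

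KIFC1, a minus-end motor, had a difference of 0.35 (0.03 to 0.68) and KIF11, the motor that separates spindle poles, of 0.31 (0.02 to 0.61). CENPE, the kinetochore motor that aligns chromosomes, fell in both lines, by 0.94 in parental cells and by 0.60 in knockout cells (the second with the replicate block), and the interval of its difference included 0 (0.34, -0.06 to 0.75). KIF18A and KIF18B had nearly equal responses in both lines, with differences of 0.07 and 0.02.

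Kinetochore and checkpoint genes were more evenly divided, with 17 of 27 positive and a median of 0.04. The median ran from -0.03, without parental 2 Gy replicate 2, to 0.14 as each array was left out. CENPF, a kinetochore protein that accumulates in G2, had signals of 7.63, 7.60 and 7.63 in knockout cells after 2 Gy, 7.89, 7.89 and 7.80 in knockout cells at 0 Gy, 7.20, 7.04 and 7.20 in parental cells after 2 Gy, and 7.83, 7.72 and 7.72 in parental cells at 0 Gy. The unirradiated arrays of the lines lay close together and the irradiated ones did not overlap. Its difference was 0.37 (0.08 to 0.65, limma adjusted p = 1.00).

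CENPF was also 1 of the 2 mitosis genes, with KNL1, for which the 9 changes formed by pairing each irradiated with each unirradiated knockout array all exceeded the 9 of parental cells. Over all genes this held for 81 (0.458%), and the reverse for 91 (0.515%). SGO2, which protects the cohesion of sister centromeres, had the lowest response of the 100 genes in parental cells, -1.03, against -0.45 in knockout cells, with an interval of its difference from -0.03 to 1.19. CENPA, the centromeric histone, had a response of -0.50 in both.

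Of 39 genes of the spindle, cytokinesis and mitotic exit, 30 were positive and the median was 0.13. This median ran from 0.07 to 0.19 as each array was left out. CKAP2, a microtubule-associated protein of the spindle, had the largest difference among the 100 genes, 0.64 (0.12 to 1.15, limma adjusted p = 1.00), which ran from 0.35 to 0.83 as each array was left out. ECT2, the exchange factor that activates RhoA in cytokinesis, had 0.54 (0.06 to 1.02), and HMMR, a hyaluronan receptor that also binds the spindle, 0.62 (-0.01 to 1.24). As each array was left out, ECT2 ran from 0.26 to 0.77 and HMMR from 0.34 to 0.81. Both were lowest without parental 2 Gy replicate 2. CDC20, the activator of the anaphase-promoting complex, went the other way, with -0.11 (-0.40 to 0.17), a response of -0.38 in knockout cells and -0.27 in parental cells. The transcription factors FOXM1 and MYBL2 had responses near 0 in both lines (-0.05 and 0.01 in knockout cells, 0.01 and 0.15 in parental cells).

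**Figure D3:**
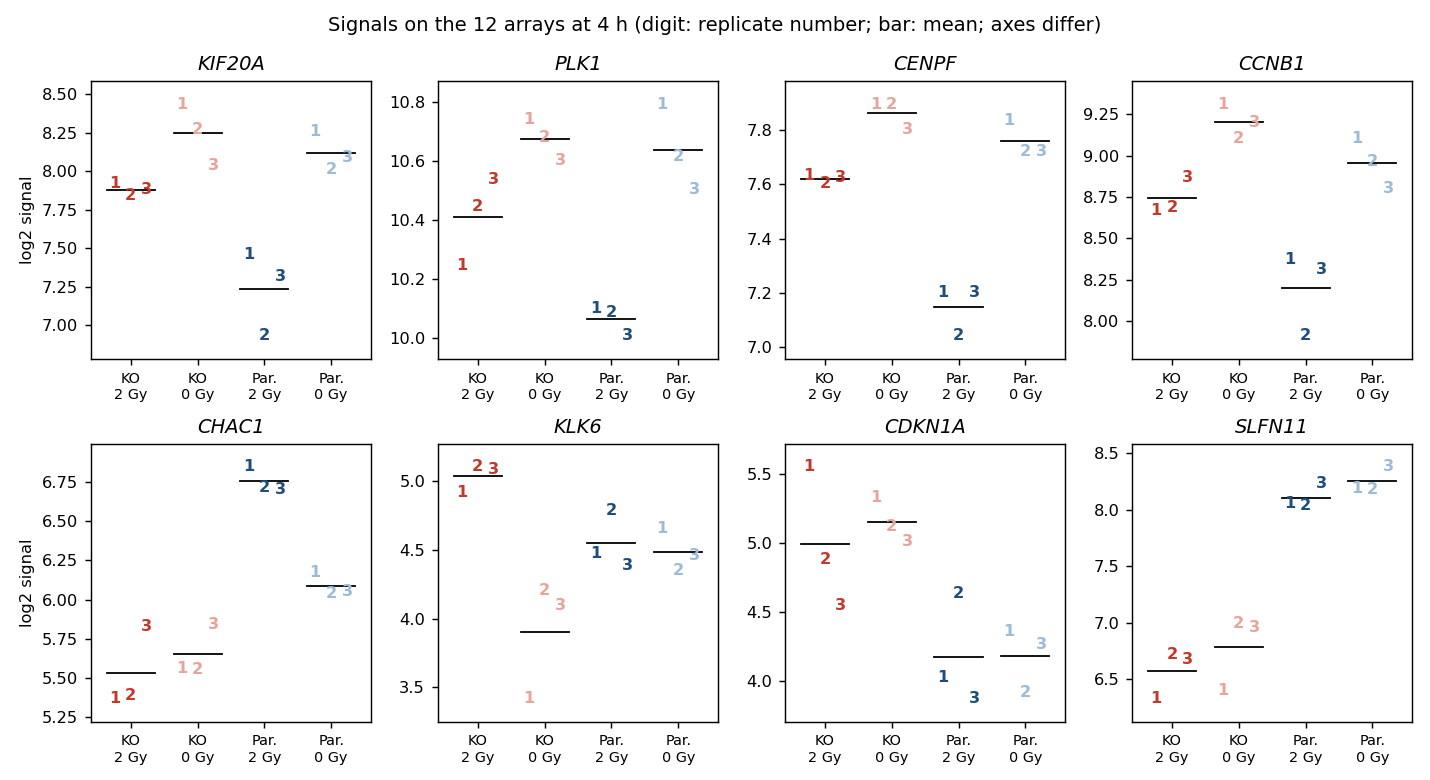
Log2 signals of 8 genes on the 12 arrays at 4 h by group, knockout (KO) in red and parental (Par.) in blue, where each digit is 1 array with its replicate number, the bar is the mean of 3, and the vertical axes differ. The irradiated parental arrays are lowest for KIF20A, PLK1, CENPF and CCNB1, while CHAC1 is higher in irradiated parental arrays and KLK6 in irradiated knockout arrays than in the unirradiated arrays of the same line.

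All 33 genes that fell in parental cells had a response below 0 in knockout cells, 29 of them at an unadjusted p below 0.05, with median responses of -0.38 in knockout cells and -0.72 in parental cells. The difference was positive for all 33 and 11 had an unadjusted p below 0.05. These genes were picked for their fall on the parental arrays, which favours a positive difference, so nothing is read from these counts. The smallest difference among them was that of RACGAP1, a cytokinesis regulator, at 0.09. PRC1, which bundles antiparallel microtubules at the midzone, had 0.16 (-0.11 to 0.42), with falls of 0.42 in knockout cells (replicate block) and 0.58 in parental cells.

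Promoters of mitosis genes often carry a cell cycle homology region, with the core TTTGAA or its variant TTTAAA, which MuvB complexes bind, and CCAAT boxes, which NF-Y binds. The promoter windows of 5 of them, from RefSeq on GRCh38.p14, span 250 bases before to 50 after the start. The first 3 are those of KIF20A, PLK1 and CENPF, the mitosis genes of smallest p for the difference, followed by those of CCNB1 and PRC1, which fell in both lines (in knockout cells with the replicate block). They were chosen after the values were seen. Capitals mark these 3 motifs on either strand. On the strand shown, a CCAAT box of the other strand reads ATTGG, the motif TTTGAA of the other strand would read TTCAAA, and TTTAAA reads alike on both.
KIF20A, chr5:138178862-138179161, plus strand: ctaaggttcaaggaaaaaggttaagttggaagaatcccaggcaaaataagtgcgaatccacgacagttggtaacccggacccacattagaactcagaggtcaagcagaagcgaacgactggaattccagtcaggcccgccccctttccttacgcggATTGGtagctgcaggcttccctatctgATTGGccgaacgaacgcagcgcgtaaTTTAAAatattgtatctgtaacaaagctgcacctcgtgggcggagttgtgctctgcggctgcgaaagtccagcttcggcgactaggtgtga
PLK1, chr16:23678639-23678938, plus strand: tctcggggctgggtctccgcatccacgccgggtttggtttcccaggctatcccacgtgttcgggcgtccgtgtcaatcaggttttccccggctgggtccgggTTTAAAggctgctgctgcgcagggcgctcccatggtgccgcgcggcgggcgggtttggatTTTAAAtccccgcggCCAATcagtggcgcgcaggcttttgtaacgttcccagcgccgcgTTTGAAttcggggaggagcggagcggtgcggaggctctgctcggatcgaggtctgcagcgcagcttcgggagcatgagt
CENPF, chr1:214602945-214603244, plus strand: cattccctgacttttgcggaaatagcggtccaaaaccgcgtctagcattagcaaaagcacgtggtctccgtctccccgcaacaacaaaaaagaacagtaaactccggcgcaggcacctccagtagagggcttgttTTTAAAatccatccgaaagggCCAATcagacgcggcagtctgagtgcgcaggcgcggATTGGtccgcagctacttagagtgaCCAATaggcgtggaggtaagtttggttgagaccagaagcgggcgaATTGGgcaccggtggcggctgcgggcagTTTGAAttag
CCNB1, chr5:69166900-69167199, plus strand: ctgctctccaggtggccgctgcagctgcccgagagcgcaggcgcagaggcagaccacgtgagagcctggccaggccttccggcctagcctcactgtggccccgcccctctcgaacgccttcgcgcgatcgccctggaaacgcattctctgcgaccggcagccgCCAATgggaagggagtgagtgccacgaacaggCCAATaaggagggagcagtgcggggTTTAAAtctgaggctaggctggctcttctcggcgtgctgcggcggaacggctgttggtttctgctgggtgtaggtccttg
PRC1, chr15:90994486-90994785, minus strand: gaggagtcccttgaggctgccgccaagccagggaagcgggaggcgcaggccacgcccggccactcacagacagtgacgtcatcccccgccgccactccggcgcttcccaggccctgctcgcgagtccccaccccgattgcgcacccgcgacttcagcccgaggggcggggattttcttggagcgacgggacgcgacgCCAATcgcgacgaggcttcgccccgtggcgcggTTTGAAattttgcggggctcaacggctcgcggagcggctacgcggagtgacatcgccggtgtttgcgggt

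Counted from the start, PLK1 holds TTTGAA from -29 to -24 and CCAAT from -73 to -69, and PRC1 has the same order, with TTTGAA from -20 to -15 and CCAAT from -53 to -49. KIF20A and CCNB1 hold TTTAAA in a like place, at -41 to -36 in KIF20A and -30 to -25 in CCNB1, each downstream of a pair of CCAAT boxes. CENPF does not share this order. Its TTTGAA lies after the start, from 41 to 46, and its TTTAAA, from -115 to -110, is upstream of all its CCAAT boxes. PLK1 also holds TTTAAA upstream of its CCAAT box, from -148 to -143 and from -88 to -83. Of the mitosis genes, 84 had a promoter in the RefSeq table. TTTGAA on either strand was found in 55 of the 84 (65.5%), in 12.4% of the 14249 measured genes with a promoter and in 15.6% of all 27303 promoters. CCAAT was found in 70.2%, 36.1% and 35.6%, and TTTAAA, counted on its own whether or not another motif overlaps it, in 21.4%, 9.47% and 12.4%. Mitosis genes with TTTGAA had median responses of -0.24 in knockout cells and -0.37 in parental cells and a median difference of 0.14, and the 29 without it -0.20, -0.25 and 0.04. For TTTAAA the median difference was 0.26 in the 18 mitosis genes with it and 0.12 in the 66 without. For CCAAT it was 0.14 in the 59 with it and 0.11 in the 25 without. Over all measured genes the median difference was 0.01 with TTTGAA and -0.0003 without it. A match is a run of letters in this window and not a tested site.

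Outside mitosis, the genes with the smallest p for the difference are described as uncalled values. The largest positive difference was that of KLK6, kallikrein-related peptidase 6. Its signals were 4.92, 5.10 and 5.09 in knockout cells after 2 Gy, 3.42, 4.21 and 4.09 in knockout cells at 0 Gy, 4.47, 4.78 and 4.39 in parental cells after 2 Gy, and 4.65, 4.35 and 4.45 in parental cells at 0 Gy. The irradiated knockout arrays were the highest of the 12, and the unirradiated knockout arrays the lowest, with replicate 1 below background. KLK6 rose by 1.13 in knockout cells (SE 0.20, limma adjusted p = 0.0138 with the replicate block, not called without it), its response in parental cells was 0.06 (SE 0.20), and the difference was 1.07 (0.48 to 1.66, limma adjusted p = 1.00). The difference stayed between 0.83 and 1.22 as each array was left out.

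Of the other genes with a positive difference, C9orf72, which acts in autophagy and endosome traffic, had 1.03 (0.41 to 1.65), with responses of 0.27 in knockout cells and -0.76 in parental cells. CLEC4A, a C-type lectin of myeloid cells, had 1.00 (0.33 to 1.67), from signals near background in every group. These 2 and KLK6 were the only genes of the 17687 with a difference above 1 in size. CCNG2, an atypical cyclin of quiescent cells, had 0.83 (0.21 to 1.45), with responses of -0.11 in knockout cells and -0.94 in parental cells. AXIN2, a WNT target that restrains the pathway, had 0.77 (0.23 to 1.30), PELI1, a ubiquitin ligase of innate immune signalling, 0.71 (0.16 to 1.27), MID1, a microtubule-associated ubiquitin ligase, 0.70 (0.21 to 1.20), and TTC23 0.48 (0.12 to 0.85). PRR11, a proline-rich protein of cell cycle progression, had 0.40 (0.13 to 0.67). PRR11 fell by 0.46 in parental cells (limma adjusted p = 0.0259) with a response of -0.06 in knockout cells.

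**Figure D4:**
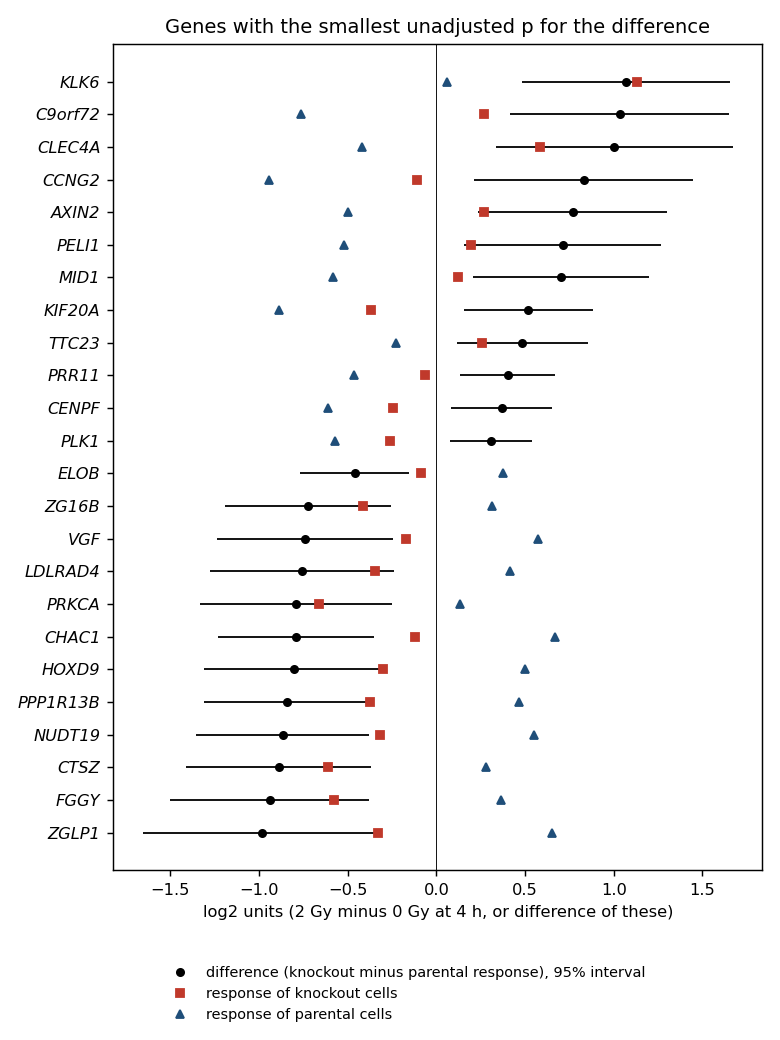
Difference of the responses with its 95% interval (black), response of knockout cells (red squares) and response of parental cells (blue triangles), in log2 units, for the 12 genes in each direction with the smallest unadjusted p among genes above background in at least 1 group. No gene shown is called. KLK6 at the top has a response of 1.13 in knockout cells and 0.06 in parental cells, and CHAC1 one of -0.12 and 0.67 in the same order.

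The gene of smallest p in the negative direction was CHAC1, a glutathione-degrading enzyme induced by ATF4 in the amino acid and unfolded protein responses. Its signals were 5.37, 5.39 and 5.83 in knockout cells after 2 Gy, 5.56, 5.55 and 5.84 in knockout cells at 0 Gy, 6.85, 6.72 and 6.71 in parental cells after 2 Gy, and 6.17, 6.04 and 6.05 in parental cells at 0 Gy. Irradiated parental arrays were all above unirradiated ones, while the 2 knockout groups overlapped and lay below all parental arrays. Its response was -0.12 (SE 0.15) in knockout cells and 0.67 (SE 0.15, limma adjusted p = 0.091, not called) in parental cells, and the difference was -0.79 (-1.23 to -0.35, limma adjusted p = 1.00). It ran from -0.94 to -0.70 as each array was left out.

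ATF3, a stress-induced transcription factor of the same response, had a difference of -0.79 (-1.38 to -0.20), with signals of 3.87, 3.63 and 3.78 in knockout cells after 2 Gy, 3.89, 4.28 and 3.95 in knockout cells at 0 Gy, 4.41, 4.25 and 4.28 in parental cells after 2 Gy, and 4.23, 3.86 and 3.31 in parental cells at 0 Gy. These signals lie near the background level, and ATF3 was above it on 2 of 3 arrays in knockout cells after 2 Gy and in parental cells at 0 Gy. The list of the ATF4 and amino acid response, CHAC1 included, had a median of -0.05 with 9 of 29 positive, and CHAC1 was its 1 gene at an unadjusted p below 0.05. TRIB3, an ATF4 target that feeds back on it, had 0.41 (-0.22 to 1.03) and PSAT1, of serine synthesis, -0.20 (-0.45 to 0.05).

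Of the remaining genes in the negative direction, ZGLP1, a germ cell transcription factor, had -0.98 (-1.66 to -0.31) and FGGY, a carbohydrate kinase, -0.94 (-1.50 to -0.38). CTSZ, the lysosomal protease cathepsin Z, had -0.89 (-1.41 to -0.37), with signals of 3.92, 3.99 and 3.90 in knockout cells after 2 Gy, 4.60, 4.64 and 4.40 in knockout cells at 0 Gy, 4.57, 5.02 and 4.44 in parental cells after 2 Gy, and 4.48, 4.41 and 4.31 in parental cells at 0 Gy. The irradiated knockout arrays were the lowest of the 12 and the other 3 groups overlapped. NUDT19, a peroxisomal hydrolase, had -0.87 (-1.35 to -0.38), PPP1R13B, also called ASPP1, a binding partner of p53, -0.84 (-1.31 to -0.37), the homeobox gene HOXD9 -0.80 (-1.31 to -0.30), and PRKCA, protein kinase C alpha, -0.79 (-1.33 to -0.25). LDLRAD4, an inhibitor of TGF-beta signalling, had -0.76 (-1.28 to -0.24), the neurosecretory peptide gene VGF -0.74 (-1.24 to -0.24), and ZG16B, a secreted lectin, -0.73 (-1.19 to -0.26). ELOB, a subunit of elongin and of cullin ubiquitin ligases, had -0.46 (-0.77 to -0.15), the brightest gene of this direction with mean signals from 7.52 to 7.82.

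NUDT19, FGGY and PRKCA in this direction, and AXIN2 in the other, were above background on 1 of 3 irradiated knockout arrays, so the size of their response in knockout cells is not well measured. By the pairing of arrays used above for CENPF, the widest gaps with a positive difference among genes above background on all 12 arrays were those of SIM1 (difference 0.56, 0.07 to 1.06), a transcription factor of the hypothalamus, and of CENPF itself, and the widest with a negative difference were those of CTSZ, CHAC1 and ZG16B.

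Responses of opposite sign, each at an unadjusted p below 0.05, were found for 9 genes (0.0509%): 6 with a positive knockout response and 3 with a negative one. PPP1R13B was the only one of the 9 above background on all 12 arrays, with responses of -0.37 in knockout cells and 0.47 in parental cells. CST9L, ASTN1, OR4C6, ZSCAN5B, DRICH1 and EMCN were above background on no array, and CD9 and TBC1D30 on some, so their differences have no level behind them that the arrays measured in all groups.

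The p53 readouts gave no difference larger than the error. CDKN1A had signals of 5.55, 4.88 and 4.54 in knockout cells after 2 Gy, 5.32, 5.11 and 5.0 in knockout cells at 0 Gy, 4.02, 4.63 and 3.87 in parental cells after 2 Gy, and 4.36, 3.91 and 4.26 in parental cells at 0 Gy. Irradiated and unirradiated arrays overlapped in both lines, and the difference was -0.15 (-0.84 to 0.53). MDM2, the p53 ubiquitin ligase, had 0.19 (-0.23 to 0.62), GDF15, a secreted stress factor, -0.05 (-0.62 to 0.53) and FAS, a death receptor, -0.11 (-0.67 to 0.46). RRM2B, the p53-inducible ribonucleotide reductase subunit, had the smallest p of the 34 p53 targets, with 0.38 (-0.02 to 0.79). Over the 34 genes the median was 0.02, with 18 positive and 0 at an unadjusted p below 0.05 in either direction, and median responses of -0.0044 in knockout cells and 0.04 in parental cells.

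DNA damage and replication genes gave small values. Of 35 genes of double-strand break repair, 24 were positive with a median of 0.07 and 0 at an unadjusted p below 0.05. The 18 damage checkpoint genes had a median of 0.07, with TOPBP1, the ATR activator, at 0.20 (-0.06 to 0.45). The 17 replication fork partners of SLFN11 had a median of 0.01, among them CLSPN, which carries the ATR signal to CHK1, at 0.27 (-0.13 to 0.67), and the helicase subunit MCM2 at -0.14 (-0.43 to 0.15). For the 47 genes of G1/S and replication the median was -0.03 with 19 positive, against the positive medians of the mitosis lists. PCNA, the sliding clamp, had -0.01 (-0.22 to 0.20) and H2AX, the histone that marks breaks, -0.03 (-0.23 to 0.18).

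**Figure D5:**
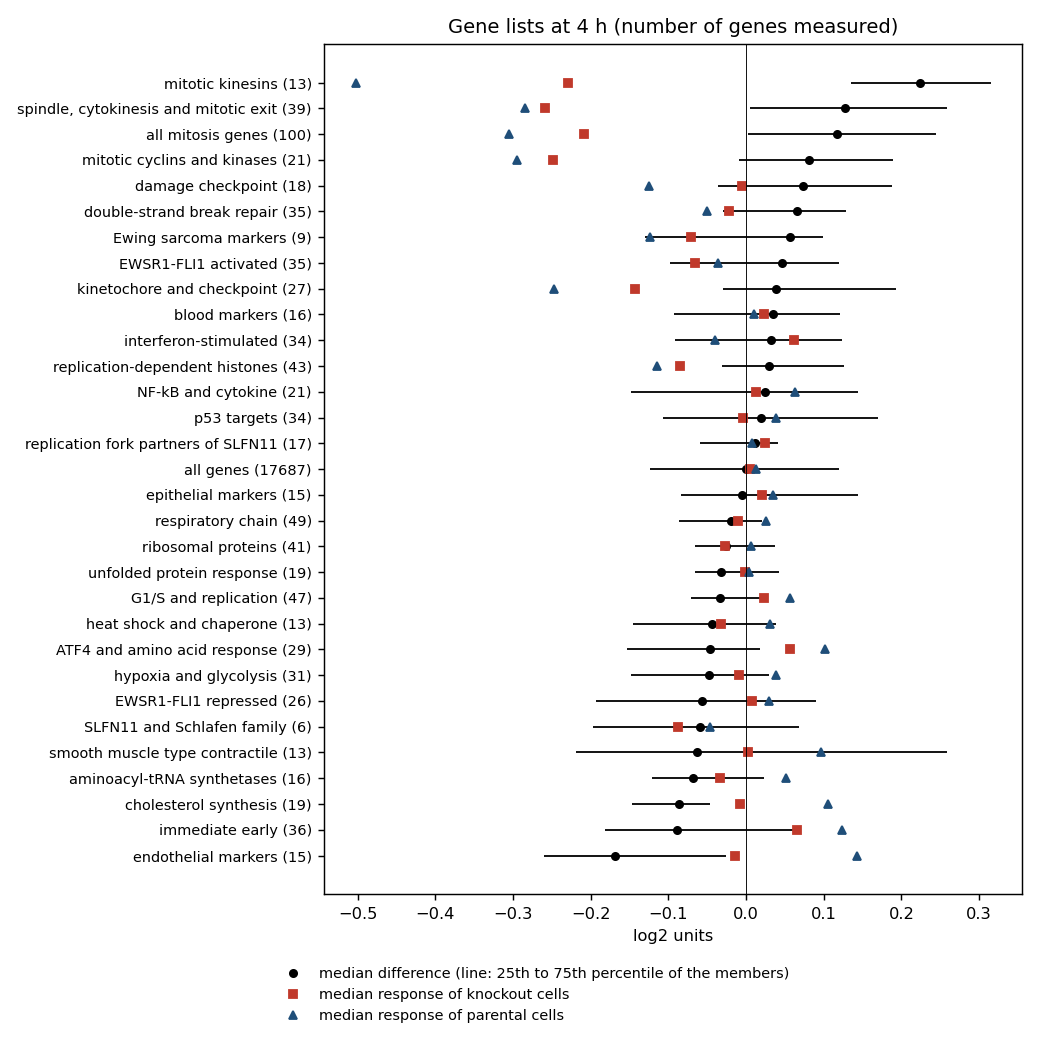
Median difference of the responses for each gene list (black points, with lines from the 25th to the 75th percentile of the members) beside the median response of knockout cells (red squares) and of parental cells (blue triangles), in log2 units, with the number of genes measured in brackets. The 4 mitosis lists have both median responses between -0.50 and -0.14, and the medians of the difference run from -0.17 for endothelial markers to 0.22 for mitotic kinesins.

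Immediate early genes, transcribed within minutes of a stimulus, had a median of -0.09 with 13 of 36 positive. Of their best known members, EGR1 had -0.09 (-0.97 to 0.80), JUN -0.12 (-0.67 to 0.43) and MYC 0.06 (-0.28 to 0.40). CCN1, a matricellular protein, had 0.55 (0.01 to 1.09, limma adjusted p = 1.00). The 34 interferon-stimulated genes had a median of 0.03, the 21 NF-kB and cytokine genes of 0.02, the 43 replication-dependent histone genes of 0.03 and the 13 heat shock genes of -0.04. Cholesterol synthesis genes had 4 of 19 positive and a median of -0.09, with MSMO1, a sterol oxidase, at -0.18 (-0.39 to 0.03). Ewing sarcoma cells depend on the fusion protein EWSR1-FLI1. Its activated genes had a median of 0.05 over 35 and its repressed genes of -0.06 over 26. Ribosomal protein genes (-0.03 over 41) and respiratory chain genes (-0.02 over 49) lay at the median of all genes or just below it.

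Markers of other cell types had medians of -0.17 for endothelial cells (3 of 15 positive), -0.01 for epithelial cells (7 of 15) and 0.03 for blood cells (10 of 16). Above background in at least 1 group were 9, 10 and 6 of these genes. Their part in the other results was not tested. The median signal of the endothelial list was 4.46, 4.26 and 4.14 in knockout cells after 2 Gy, 4.38, 4.20 and 4.17 in knockout cells at 0 Gy, 4.04, 4.53 and 4.13 in parental cells after 2 Gy, and 4.62, 4.09 and 4.24 in parental cells at 0 Gy. These ranges overlap within each line.

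Over all genes the median of the difference was -0.0080, -0.016, 0.015 and -0.0020 over 4 equal bins of genes from dimmest to brightest, and over chromosomes it ran from -0.045 on chromosome 22 to 0.046 on chromosome 13. The Schlafen family had 6 measured genes, of which SLFN11 and SLFN5 were above background on all 12 arrays. SLFN5 had 0.11 (-0.46 to 0.68). SLFN12 had -0.50 (-1.01 to 0.01), but was above background on 1 array each of parental 2 Gy and parental 0 Gy and on no knockout array, and SLFN12L, SLFN13 and SLFN14 were above it on none.

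The 12 arrays at 24 h give the same difference at a later time from other samples. At 24 h mitosis genes had a median response of -0.02 in knockout cells and 0.01 in parental cells, and a median difference of -0.03. KIF20A had a difference of 0.52 at 4 h and -0.04 at 24 h (SE 0.17), PLK1 of 0.31 at 4 h and -0.17 at 24 h (SE 0.10), and CENPF of 0.37 at 4 h and -0.04 at 24 h (SE 0.13). CHAC1 kept its sign, with -0.79 at 4 h and -1.07 at 24 h (SE 0.23), and the change between the times was 0.28 (SE 0.33, limma adjusted p = 0.999). KLK6 had 1.07 at 4 h and 0.55 at 24 h (SE 0.33). CREB5, a transcription factor of the ATF family, had 0.18 at 4 h and -1.18 at 24 h. In the fit to all 24 arrays, the 4 h difference minus the 24 h difference was called for 0 genes (0%). An unadjusted p below 0.05 was found for 503 (2.84%). Among them were PLK1 (0.48, SE 0.14, limma adjusted p = 0.999), CREB5 (1.36, SE 0.36), KIF20A (0.56, SE 0.25) and CENPF (0.41, SE 0.18). KIF20A, PLK1 and CENPF, like CHAC1 and KLK6, were picked for a small p at 4 h. That favours a larger difference at 4 h than at 24 h, so nothing is read from their change. CREB5 is from a list of readouts chosen with earlier results of these data known, so nothing is read from its change either.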

How the data were processed

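RNA from 12 samples harvested at 4 h was measured on Affymetrix whole-transcript arrays, and the 12 arrays at 24 h entered only where named. The deposited log2 values come from RMA and Affymetrix Expression Console 1.1, per the submitters' processing notes, and the sources used here do not say which arrays they took together. Of 24351 probe sets, 17709 had 1 gene symbol and 6642 did not and were left out. For 20 genes with several probe sets the brightest over 24 arrays was kept, leaving 17687 genes.

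Groups were taken from the sample titles. The difference was fitted with limma 3.58.1 in R 4.3.3 (lmFit with 1 mean per group, eBayes with an intensity trend, 8 residual degrees of freedom), with Benjamini-Hochberg adjustment over 17687 genes. The p-values of single genes come from this fit, except where the replicate block is named. Those that set 4 h against 24 h come from the same model on 24 arrays. The fit was tested on simulated data. Arrays have no read depth, so their number limits the precision. Lists are described by counts and medians without a test.

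The genes described, the lists and the rule for naming genes were chosen with earlier results of these data known. By that rule the text names the Schlafen family, up to 12 genes in each direction by p, up to 4 members of each list, up to 10 called genes of each response, up to 10 genes each of opposite response or widest gap between array pairs, and a list of readouts. The union of the 4 mitosis lists was formed after their medians had been seen, and KIF18A, KIF18B, PKMYT1, CENPA, FOXM1, MYBL2 and RACGAP1 were named after their values were seen, as were the genes called with the replicate block. Same-number correlations were all over 0.1 between the 2 knockout groups; the lowest was 0.094 between the 2 parental groups and 0.016 over all pairs of groups. The block was 1 effect per replicate number across the 12 arrays. Members of the lists without a named probe set, such as BTG2, are not analysed here.

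Alternatives were all 24 arrays, no trend, array weights, a filter on dim genes, the replicate block, quantile normalization, equal median and interquartile range, the mean of probe sets, and leaving out each array.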

Additional observations from a re-analysis of the deposited data

How the results depend on the processing

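No gene was called for the difference of the responses under any of the 8 other settings or without any of the 12 arrays. Genes at an unadjusted p below 0.05 numbered 445 higher and 444 lower with array weights, 128 and 128 after the filter on dim genes, 369 and 351 with the replicate block, and 201 to 386 and 197 to 393 as each array was left out. The filter left 13026 genes to test, against 17687 in the other settings. In knockout cells only the replicate block gave calls, 2 higher and 16 lower. In parental cells genes called higher were 7 with array weights, 7 with the replicate block and 0 to 1 as each array was left out; genes called lower were 0 without the intensity trend, 50 with array weights, 86 with the replicate block, 21 with equal median and interquartile range, and 6 to 36 as each array was left out. The 9 mitosis genes at an unadjusted p below 0.05 were 5 without the trend, 21 with the replicate block and 4 to 25 as each array was left out. Same-number correlations were over 0.1 for each number between the knockout groups and between each of these and parental 0 Gy, and not between the other groups, so blocked counts of the difference are given here only. The difference changed sign with array weights for EGR1 (0.20), FAS (0.0208), GDF15 (0.0744) and SLFN5 (-0.11), and with quantile normalization for PCNA (0.0240). As each array was left out it ran from -0.43 to 0.0749 for CDKN1A, -0.0276 to 0.40 for CREB5, -0.46 to 0.22 for EGR1, -0.33 to 0.10 for FAS, -0.24 to 0.17 for GDF15, -0.0780 to 0.0238 for H2AX, -0.27 to 0.0189 for JUN, -0.0664 to 0.19 for MYC, -0.0457 to 0.0361 for PCNA, -0.26 to 0.0583 for SLFN11, -0.17 to 0.0418 for SLFN12L and -0.11 to 0.26 for SLFN5. The causes were not tested. Of 476 values of 60 genes under the other settings these 5 were the only changes of sign. None of 232 list medians under those settings moved by more than the spread between arrays. List medians did so as single arrays were left out, most often for blood markers (9 of 12 arrays, -0.03 to 0.11). The EWSR1-FLI1 activated genes moved for 2 of 12. Kinetochore and checkpoint genes, the Schlafen family, replication fork partners, EWSR1-FLI1 repressed genes and contractile genes moved for 1 of 12 each. Quantile normalization of the 24 arrays, chosen after seeing the data, left 0 genes called between 4 h and 24 h. The median 95% interval reached 0.455 log2 units to either side over all genes and 0.456 over genes above background.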
